A study of Mus musculus with 2 samples.

Results

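The Ikaros family is a group of 5 zinc finger genes: Ikzf1 (which encodes Ikaros), Ikzf2 (Helios), Ikzf3 (Aiolos), Ikzf4 (Eos) and Ikzf5 (Pegasus). They were taken by symbol from the 43346 mouse Ensembl genes in the deposited tables, and all 5 were found. Their levels and annotated transcripts are described here in total RNA of hematopoietic stem cells, the bone marrow cells from which all blood lineages arise. The series holds 1 group of 2 libraries, each made from 100 cells of C57BL/6J males, adults of 5 to 6 weeks, with no treatment or mutation named. They are biological replicates 1 and 2 by their labels, which name the same donor identifier for both. The sources used here do not say if separate animals were sampled, and some of the spread may be technical. With 1 group there was no comparison between conditions, and 2 libraries allow no test, so values are given per library and as mean ± SD (n = 2).

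Ikaros proteins share 1 plan. A cluster of C2H2 zinc fingers near the N terminus binds DNA, and a pair of fingers at the C terminus joins the proteins to themselves and to each other. Alternative splicing removes N-terminal fingers from some isoforms, and isoforms that keep too few of them can pair with full proteins and block their DNA binding. Ikaros recruits the NuRD chromatin remodeling complex. It is required for B cell development, and mouse stem and multipotent cells that lack it have reduced activity. Aiolos acts in maturing lymphocytes. Helios is known in stem cells and T cells, and Eos in regulatory T cells. Pegasus is the most distant member, and in humans its variants affect platelets.

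In the translated reference sequences, a search for the C2H2 pattern found 6 fingers in Ikzf1 to Ikzf4, 4 N-terminal and 2 C-terminal. Ikzf5 had 5, of which 3 were N-terminal. The second N-terminal finger had the same 21 amino acids in Ikzf1, Ikzf2, Ikzf3 and Ikzf4. Its DNA differed between the genes, with 51 of 63 bases identical to Ikzf1 in Ikzf2, 51 in Ikzf3 and 53 in Ikzf4. These stretches are printed because they show the most conserved piece of the DNA-binding region together with the base differences that separate the genes at the level of reads. They lie at chr11:11754024-11754086 on the plus strand for Ikzf1. On the minus strand they lie at chr1:69570581-69570643 for Ikzf2, chr11:98488940-98489002 for Ikzf3 and chr10:128640229-128640291 for Ikzf4 (GRCm38, the same build as mm10). Capitals mark the codons of the zinc-binding cysteines and histidines.
Ikzf1 second finger: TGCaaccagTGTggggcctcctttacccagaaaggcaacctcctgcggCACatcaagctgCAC
Ikzf2 second finger: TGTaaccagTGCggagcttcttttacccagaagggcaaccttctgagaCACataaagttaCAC
Ikzf3 second finger: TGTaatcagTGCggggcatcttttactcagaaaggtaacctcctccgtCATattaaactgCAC
Ikzf4 second finger: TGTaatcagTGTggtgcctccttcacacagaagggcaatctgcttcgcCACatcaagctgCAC

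The first N-terminal finger was less alike, with 19 of 21 residues identical to Ikzf1 in Ikzf2, 16 in Ikzf3 and 19 in Ikzf4. It is the N-terminal finger that Ikzf1-201 lacks. In Ikzf1 a single coding exon of 261 bases carries it (chr11:11748311-11748571, plus strand), printed with the same capitals because the main isoforms differ by it.
Ikzf1 first-finger exon: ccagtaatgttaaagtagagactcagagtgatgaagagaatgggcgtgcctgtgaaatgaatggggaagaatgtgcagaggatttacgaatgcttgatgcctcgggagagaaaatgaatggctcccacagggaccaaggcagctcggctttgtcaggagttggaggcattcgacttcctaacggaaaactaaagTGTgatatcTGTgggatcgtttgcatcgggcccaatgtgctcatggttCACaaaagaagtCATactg

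Ikzf1-203 has a further coding exon of 60 bases between the exon upstream and this one (chr11:11740950-11741009, plus strand), and no other Ikzf1 transcript with a complete coding sequence has it.
Ikzf1 alternative exon: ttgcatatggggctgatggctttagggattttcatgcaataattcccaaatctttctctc

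The junctions that tell the 3 leading Ikzf1 isoforms apart all start from the same upstream exon, whose last 15 bases are in lower case. The first 15 bases of the exon that follows are in capitals. Ikzf1-203 continues into the 60-base exon, Ikzf1-204 into the first-finger exon, and Ikzf1-201 past both into the exon of the second and the third finger.
Ikzf1-203 junction: gtgatcgaggcatggTTGCATATGGGGCTG
Ikzf1-204 junction: gtgatcgaggcatggCCAGTAATGTTAAAG
Ikzf1-201 junction: gtgatcgaggcatggGTGAACGGCCTTTCC

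Before the members, the libraries were checked against their label. Expected counts over genes were 48307600 in replicate 1 and 28945000 in replicate 2. Of 15 stem cell markers, 14 were detected in both libraries, beside 45.5% of 21461 nuclear protein coding genes. Slamf1 was below the limit in replicate 2 (2.87 and 0.36 TPM). The 15 markers summed to 617 TPM in replicate 1 and 447 TPM in replicate 2. Of them, 2 were more than 2-fold higher in replicate 1, Slamf1 and Mecom (52.0 and 17.9 TPM). A gene was called detected at a level of at least 1 TPM (transcripts per 1000000) with an expected count of at least 10. At 5 TPM and 50 counts, 9 stem cell markers were detected in both libraries. At the limits used, so were 9 of 10 lymphoid-primed progenitor, 7 of 8 early myeloid and 5 of 8 megakaryocyte markers. The numbers were 4 of 10 for T and NK cells, 3 of 10 for B cells and 1 of 10 for mature neutrophils and monocytes. High detection was thus not particular to the stem cell list. Replicate 2 was higher in several marker lists of other cells. Its 10 mature neutrophil and monocyte markers summed to 384 TPM, against 5.11 TPM in replicate 1, where 5 of them were at 0. Its 10 B cell markers summed to 40.1 TPM, against 11.97 TPM in replicate 1, where 6 were at 0. Its 8 early myeloid markers summed to 1580 TPM, against 555 TPM in replicate 1, and 5 of them were more than 2-fold higher in replicate 2. Over 11189 coding genes detected in either library, 11.2% were more than 2-fold higher in replicate 1 and 12.1% in replicate 2. The 10 lymphoid-primed progenitor markers summed to 481 and 2489 TPM, of which the immunoglobulin gene Ighm made up 64.5 and 2157 TPM. The 10 erythroid markers were detected in both libraries (sums of 2258 and 2044 TPM). In pooled cells, fewer cells of a type and less RNA per cell cannot be told apart, and the part these other signals had in the values below was not tested.

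Of the 5 members, 4 were detected in both libraries: Ikzf1, Ikzf2, Ikzf3 and Ikzf5. For scale, 45.5% of 21461 nuclear protein coding genes were detected in both, and 24.7% of all 43346 genes. The order of levels was the same in each library, from Ikzf1 through Ikzf5, Ikzf2 and Ikzf3 to Ikzf4. Ikzf1 stood above the others by a wide margin, and it made up 71.7% of the family's summed TPM in replicate 1 and 82.4% in replicate 2. The plot of levels by gene shows this order and the overlaps described next.

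**Figure D1:**
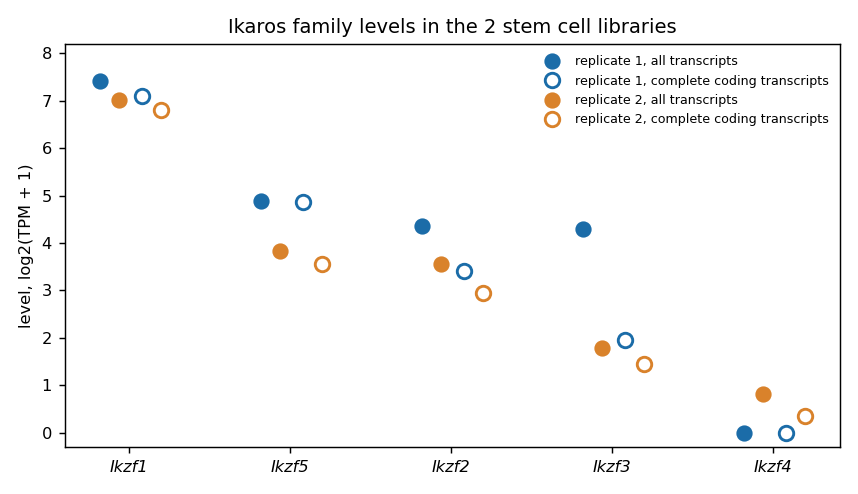
Level of each Ikaros family gene on the log2(TPM + 1) scale, with 1 point per library (blue, replicate 1; orange, replicate 2). Filled points sum all transcripts of a gene and open points sum only transcripts with a complete coding sequence. Ikzf1 lies above all other points, and the filled points of Ikzf5, Ikzf2 and Ikzf3 overlap while their open points do not.

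Ikzf1 (chr11:11685003-11772926, plus strand) had 169 TPM in replicate 1 and 128 TPM in replicate 2, a mean of 149 ± 29.2 TPM, from expected counts of 15535 and 7358. The intervals deposited with the TPM, whose level is not stated, were 159 to 172 and 117 to 129 TPM. Both libraries thus placed it among the most abundant coding messages, at rank 199 of 21461 in replicate 1 and rank 249 in replicate 2. Its lowest value was above the highest value of every other member.

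Ikzf5 (chr7:131388652-131410521, minus strand) had 28.6 TPM in replicate 1 and 13.3 TPM in replicate 2 (20.97 ± 10.8 TPM; counts of 1784 and 806). Ikzf2 (chr1:69531214-69687245, minus strand) had 19.5 and 10.8 TPM in the same order (15.2 ± 6.20 TPM; counts of 2751 and 913). Ikzf3 (chr11:98464902-98546031, minus strand) had 18.5 and 2.47 TPM (10.5 ± 11.4 TPM; counts of 777 and 152). All 3 were higher in replicate 1, and the values of neighbours in the order overlapped. Their ranges over the libraries thus did not separate them, although the order was the same within each library. The spread of Ikzf3 was the widest and exceeded its mean.

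Ikzf4 (chr10:128630843-128645991, minus strand) was not detected in either library. It had no count in replicate 1, where 3 counts would be 0.0531 TPM, and 42 counts, or 0.76 TPM, in replicate 2. Such a difference between the libraries is common at this level: among the 709 coding genes whose replicate 2 level was between 0.5 and 1 TPM, 47.8% had no expected count in replicate 1. The deposited interval of Ikzf4 in replicate 2 was 0.886 to 3.215 TPM, so its TPM lay below that interval. Its posterior mean was 1.99 TPM there, above the limit of 1 TPM, and 0.51 TPM in replicate 1. Of 5 regulatory T cell markers, 1 was detected in both libraries (Tnfrsf18, 2.05 and 2.29 TPM), beside 45.5% of nuclear protein coding genes. Foxp3 and Il10 were at 0 in both, Ctla4 had 0 and 0.92 TPM and Il2ra 0.51 and 0 TPM, and the list summed to 2.56 TPM in replicate 1 and 3.21 TPM in replicate 2.

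Ratios within a library remove its depth and scaling. Ikzf1 exceeded Ikzf5 by 2.56 log2 units in replicate 1 and 3.25 in replicate 2 (2.91 ± 0.49), and it exceeded Ikzf2 by 3.11 and 3.56 (3.33 ± 0.32). Both ratios were larger than their spread between the libraries. The log2 ratio of Ikzf5 to Ikzf2 was small, at 0.55 and 0.31 (0.43 ± 0.17). That of Ikzf2 to Ikzf3 was 0.08 in replicate 1 and 2.08 in replicate 2 (1.08 ± 1.42), a spread larger than the mean.

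Between the libraries, differences on the log2(TPM + 1) scale, replicate 1 minus replicate 2, were 0.40 for Ikzf1, 0.80 for Ikzf2, 2.49 for Ikzf3, -0.82 for Ikzf4 and 1.05 for Ikzf5. Ikzf3 and Ikzf5 were therefore more than 2-fold higher in replicate 1, as were 11.2% of 11189 coding genes detected in either library. A further 12.1% were more than 2-fold higher in replicate 2, and 23.3% were apart in either direction. The difference of Ikzf5 was 0.91 on TPM rescaled over nuclear protein coding genes. On counts it was smaller still, at 0.21 with TMM-scaled counts and 0.20 with counts over DESeq2 size factors. That of Ikzf3 was 1.28 and 1.40 on those scales, which are not per length.

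Part of the spread lay in which transcripts carried the signal. IsoPct, the deposited share of a gene's TPM carried by each transcript, is a share per length, so a short transcript with few reads can hold a large share. For each gene the leading transcript is the one with the largest IsoPct. It was the same in both libraries only for Ikzf1 among the 4 detected members. Over 7364 coding genes with 2 or more transcripts it was the same in 51.4%, in 61.2% of those with at least 1000 counts in both libraries, and in 48.5% of those whose lower library had at least 100 but under 1000 counts. Transcripts are named as in GENCODE M21, which holds every transcript of Ikzf1, Ikzf2 and Ikzf3 at the quantified length.

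**Figure D2:**
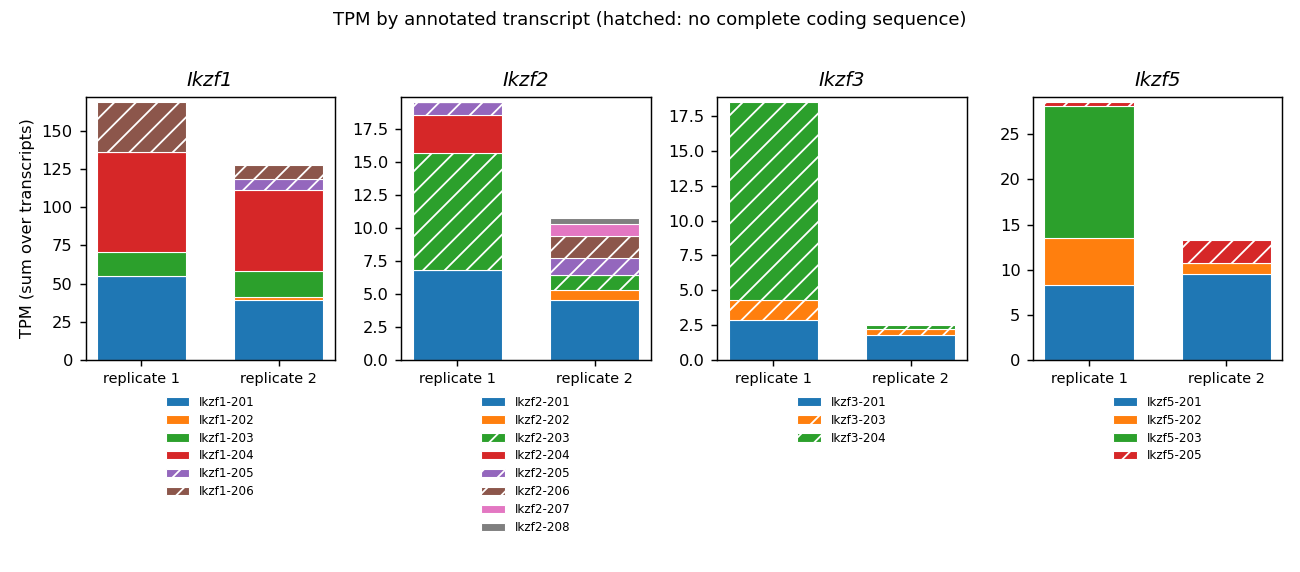
TPM of each annotated transcript, stacked by library, for the 4 detected members, with a separate TPM axis from 0 for each gene; hatched pieces have no complete coding sequence. Ikzf1-201, Ikzf1-203 and Ikzf1-204 make up most of the Ikzf1 column in both libraries, whereas the Ikzf1-206 piece is 33.1 TPM in replicate 1 and 9.06 TPM in replicate 2. Ikzf3-204 and Ikzf5-203 make up most of their gene's column in replicate 1 and little or nothing in replicate 2.

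In Ikzf1, 3 transcripts with a complete coding sequence carried most of the signal. Ikzf1-204 encodes 515 amino acids with all 6 fingers, the form known as Ik-1, and it held 38.8% of the gene in replicate 1 and 41.5% in replicate 2. Ikzf1-201 encodes 428 amino acids without the first finger, the form known as Ik-2, and it held 32.5% and 30.6%. Ikzf1-203, which adds the 60-base exon and encodes 535 amino acids with all fingers, held 9.19% and 13.2%. The order of these 3 was the same in both libraries, and their shares moved by fewer than 5 points. In TPM they were at 65.7 and 53.2 for Ikzf1-204, 55.0 and 39.1 for Ikzf1-201, and 15.6 and 16.9 for Ikzf1-203.

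The ratio of Ikzf1-204 to Ikzf1-201 was 1.19 in replicate 1 and 1.36 in replicate 2 (1.28 ± 0.118), so the form with the first finger was slightly ahead in each. Ikzf1-204 exceeded Ikzf1-203 by 4.22-fold and 3.14-fold. Among the transcripts that show whether the first-finger exon is kept, those that keep it held 59.6% of the TPM in replicate 1 and 58.9% in replicate 2 (59.3 ± 0.467%). The split was thus close in the 2 pools, but this rests partly on an incomplete transcript without the exon, Ikzf1-205. It was at 0 in replicate 1 and at 7.40 TPM in replicate 2. Over complete coding transcripts only, those with all N-terminal fingers averaged 61.2%.

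The split depends on counting per length. In expected counts the transcripts with the exon held 83.7% in replicate 1 (95% exact interval 83.1 to 84.3) and 85.3% in replicate 2 (84.5 to 86.1). Their annotated last exons are longer: 4046 bases in Ikzf1-204, against 918 bases in Ikzf1-201. Expected counts are reads shared out by the authors' program, and how many of them crossed the junctions printed above cannot be read from these tables.

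Of the other 3 transcripts, 2 have an incomplete coding sequence. Ikzf1-206, an incomplete transcript of 242 bases, had 19.5% of the gene in replicate 1 and 7.08% in replicate 2, although it took 0.824% and 0.254% of the gene's counts (128 and 18.7). Ikzf1-205, also incomplete, was at 0 in replicate 1 and at 5.78% in replicate 2, from 42.4 counts. Ikzf1-202, which encodes 198 amino acids and lacks the first finger and both C-terminal fingers, was at 0 and 1.81%. The 4 Ikzf1 transcripts with a complete coding sequence all keep at least 3 N-terminal fingers. The largest shift of any Ikzf1 transcript between the libraries was 12.4 points, against a median of 21.7 points over 2201 genes of at least 1000 counts.

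**Figure D3:**
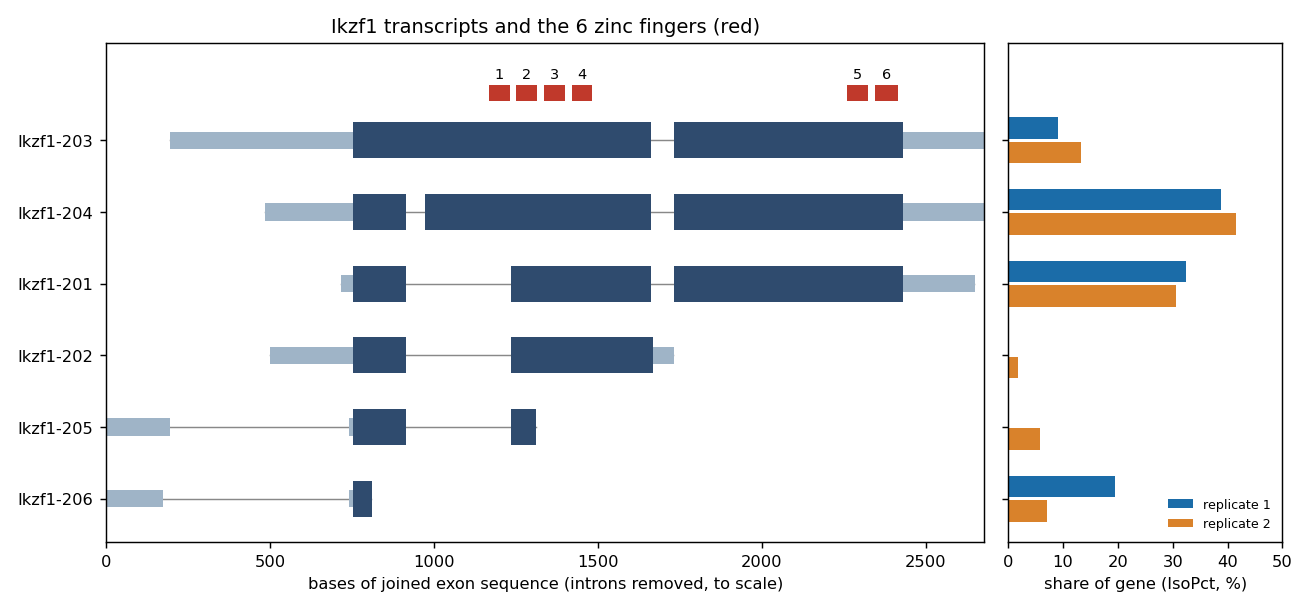
Ikzf1 transcripts along their joined exons in bases, with introns removed (thick, coding; thin, untranslated; red, the 6 fingers numbered from the N terminus), and the IsoPct of each in percent in both libraries. The last exons of Ikzf1-203 and Ikzf1-204 run past the right edge. Ikzf1-201 skips the exon of finger 1, and the bars of Ikzf1-204 and Ikzf1-201 are the longest in both libraries.

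Ikzf2 was less settled. Its leading transcript was Ikzf2-203 in replicate 1, with 45.5% there and 10.4% in replicate 2. That transcript is annotated as a retained intron and has no coding sequence. Its level was 8.88 TPM (deposited interval 7.42 to 9.67) and 1.12 TPM (0.643 to 1.55), from 583 and 41.3 counts, so the intervals did not overlap. In replicate 2 the leading transcript was Ikzf2-201, which encodes 526 amino acids with all 6 fingers and held 34.8% and 41.7% (6.80 and 4.49 TPM). A second retained intron, Ikzf2-205, held 5.06% and 12.1%. A leading transcript annotated as not protein coding was found in 26.9% of coding genes with 2 or more transcripts in replicate 1 and in 17.9% in replicate 2.

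Among Ikzf2 transcripts that lack the first finger, Ikzf2-204, without the first and the fourth finger, held 14.7% in replicate 1 (114 counts) and was at 0 in replicate 2. Ikzf2-202, without the first finger, was at 0 in replicate 1 and held 7.44% in replicate 2 (27.4 counts). Ikzf2-207, with all fingers, and the incomplete Ikzf2-206 were also seen only in replicate 2, at 8.61% and 15.6%, the last from 7.04 counts. Apart from Ikzf2-201, no protein coding Ikzf2 transcript had counts in both libraries. Ikzf2-208 was at 0 and 4.21%, and Ikzf2-209 at 0 in both.

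Over all transcripts that show the choice, those that keep the first finger held 70.3% of the TPM in replicate 1 and 81.3% in replicate 2 (75.8 ± 7.74%), and 94.6% and 95.5% of the counts. Unlike Ikzf1, where a whole exon is skipped, Ikzf2 loses the last 78 bases of an exon of 267 bases (chr1:69577781-69578047, minus strand). Those bases (chr1:69577781-69577858) and the exon of the fourth finger (138 bases, chr1:69548599-69548736, minus strand) are printed because the minor Ikzf2 isoforms differ by them. Capitals mark the zinc-binding codons.
Ikzf2 first-finger stretch: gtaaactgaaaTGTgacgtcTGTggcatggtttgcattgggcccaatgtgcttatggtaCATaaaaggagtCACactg
Ikzf2 fourth-finger exon: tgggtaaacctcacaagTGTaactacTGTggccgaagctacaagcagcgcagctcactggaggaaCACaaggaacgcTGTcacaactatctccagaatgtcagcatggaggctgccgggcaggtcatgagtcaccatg

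**Figure D4:**
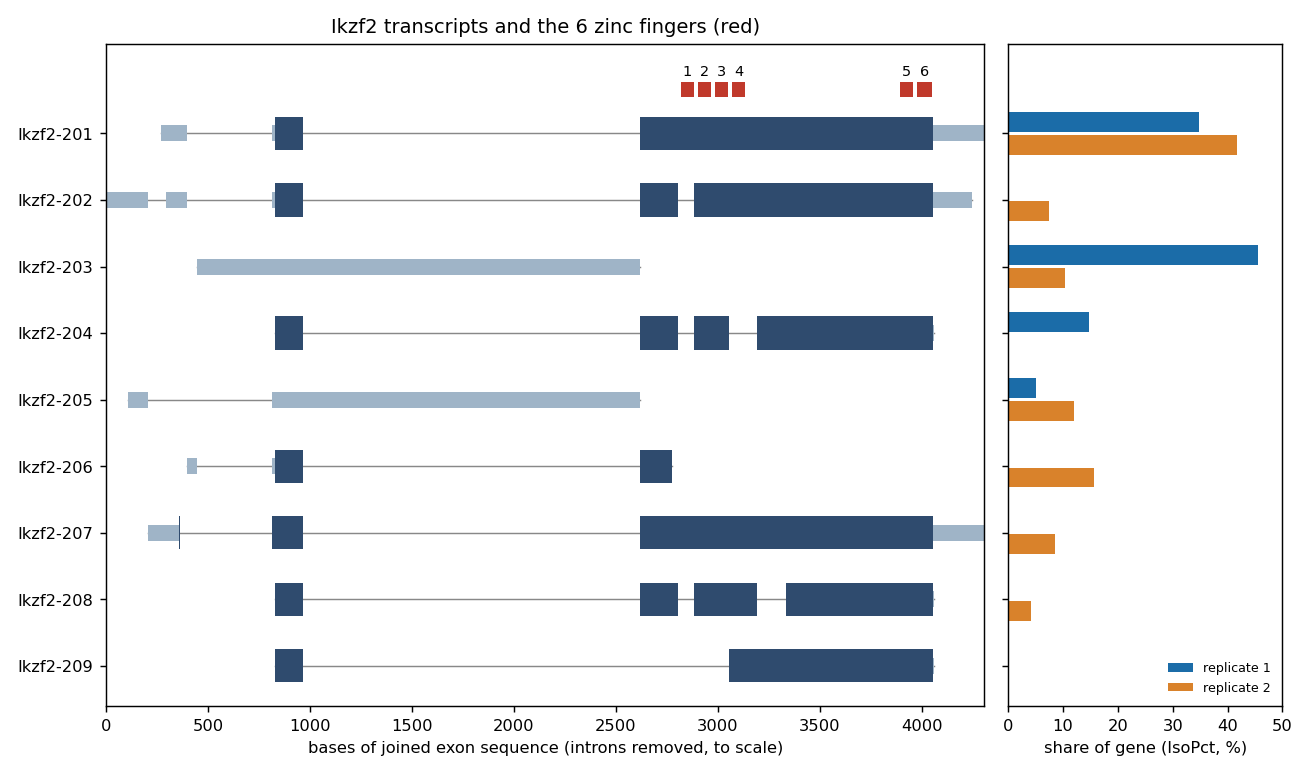
Ikzf2 transcripts along their joined exons in bases, with introns removed (thick, coding; thin, untranslated or without a coding sequence; red, the 6 fingers), and the IsoPct of each in percent in both libraries. The long thin boxes of Ikzf2-203 and Ikzf2-205 are the retained introns, and Ikzf2-203 has the longest bar in replicate 1 and Ikzf2-201 in replicate 2.

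Ikzf3 had a single transcript with a complete coding sequence, Ikzf3-201, which encodes 507 amino acids with all 6 fingers. It held 15.5% of the gene in replicate 1 and 70.5% in replicate 2. In level it differed far less than the gene did, with 2.88 TPM (deposited interval 2.50 to 3.15) and 1.74 TPM (1.33 to 1.97), from 326 and 111 counts. The gap between the gene totals lay in Ikzf3-204, a processed transcript of 670 bases without a coding sequence. It had 14.3 TPM and 77.0% of the gene in replicate 1, from 251 counts, and 0.26 TPM and 10.5% in replicate 2, from 2.55 counts. Ikzf3-203, a retained intron, had 200 and 38 counts, and Ikzf3-202 was at 0 in both.

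T and NK cell markers also differed between the libraries. Of the 10 on the list, 5 were more than 2-fold higher in replicate 1: Thy1 (9.06 and 2.92 TPM), Ncr1 (7.04 and 1.74), Klrb1c (7.24 and 0.43), Cd3e (3.56 and 0) and Cd3g (3.18 and 0). Over 11189 coding genes detected in either library, the share was 11.2%. Higher in replicate 2 were Lck (1.19 and 6.95 TPM), Nkg7 (36.2 and 55.8) and Cd4 (0 and 0.95), while Cd3d and Cd8a were at 0 in both. The list sums were close, at 67.5 and 68.8 TPM, but Nkg7 made up the largest part of each. The part of these markers in the Ikzf3 difference was not tested.

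In Ikzf5 the leading transcript of replicate 1 was Ikzf5-203, with 51.2% of the gene there (14.6 TPM, 278 counts) and none in replicate 2. It encodes 107 amino acids with 1 of the 3 N-terminal fingers and no C-terminal finger. Ikzf5-201, with all 5 fingers and 419 amino acids, held 29.1% and led in replicate 2 with 71.4%. Its level was nearly the same in both libraries, at 8.32 TPM (deposited interval 7.50 to 8.74) and 9.52 TPM (8.30 to 9.77). The full-length Pegasus message thus did not share the 2-fold difference of its gene total. Ikzf5-202, which keeps only the first N-terminal finger beside the C-terminal pair, held 18.2% and 9.00%, and the incomplete Ikzf5-205 held 1.58% and 19.6%, in replicate 2 from 16.9 counts.

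For Ikzf4 the 42 counts of replicate 2 spread over 4 transcripts, of which Ikzf4-201, with all 6 fingers, had 25.0 counts and 36.1%. The others are not in GENCODE M21 and held 19.9% to 23.3% each, which at this depth gives no order.

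When only transcripts with a complete coding sequence were summed, a choice made after seeing the data, the members separated. Ikzf1 had 136 and 112 TPM (124 ± 17.4), Ikzf5 had 28.2 and 10.7 TPM (19.4 ± 12.3), and Ikzf2 had 9.67 and 6.67 TPM (8.17 ± 2.12). Ikzf3 had 2.88 and 1.74 TPM (2.31 ± 0.806), and Ikzf4 had 0 and 0.27 TPM. The order of the genes was the same as over all transcripts, and no member's values overlapped those of another. The gap between Ikzf5 and Ikzf2 was narrow, with 10.7 TPM against 9.67 TPM. In replicate 1 the Ikzf5 sum includes 14.6 TPM of Ikzf5-203, which keeps 1 finger. Ikzf5-201 alone, at 8.32 and 9.52 TPM, lay within the Ikzf2 range of 6.67 to 9.67 TPM. The log2 ratio of Ikzf2 to Ikzf3 was then 1.80 ± 0.12 in place of 1.08 ± 1.42. That of Ikzf1 to Ikzf3 was 5.72 ± 0.29 in place of 4.41 ± 1.74. The spread widened for Ikzf5 to Ikzf2 (1.10 ± 0.60 in place of 0.43 ± 0.17). It also widened for Ikzf1 to Ikzf5 (2.82 ± 0.78 in place of 2.91 ± 0.49), and it narrowed for every other pair. Over complete coding transcripts Ikzf5 alone was more than 2-fold apart between the libraries, with a log2 difference of 1.31, and Ikzf3 fell to 0.50.

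Transcripts that encode every N-terminal finger held 48.0% of Ikzf1 in replicate 1 and 54.8% in replicate 2, 34.8% and 50.3% of Ikzf2, 15.5% and 70.5% of Ikzf3, and 29.1% and 71.4% of Ikzf5. The share was lower in replicate 1 for all 4, by the least in Ikzf1. Transcripts with a complete coding sequence and fewer N-terminal fingers held 32.5% and 32.4% of Ikzf1, 14.7% and 11.6% of Ikzf2, and 69.3% and 9.00% of Ikzf5. Ikzf3 has none among its quantified transcripts.

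Among 40 blood transcription factor genes, Ikzf1 was exceeded in both libraries by Lmo2 and Myb only. Its nearest neighbours by distance over the 2 libraries on the log2(TPM + 1) scale were Hlf, a stem cell factor (162 and 98.0 TPM; distance 0.39), and Zfpm1, the Gata1 cofactor (116 and 124 TPM; 0.55). Ikzf5 lay nearest to Mef2c, which promotes lymphoid fate (28.7 and 17.2 TPM; 0.35), and Zbtb7a (21.7 and 22.1 TPM; 0.79). Ikzf2 lay nearest to Mef2c (0.82) and Gata2, a stem cell regulator (12.8 and 19.0 TPM; 0.96). Ikzf3 lay nearest to Gata3, a T cell and stem cell factor (14.98 and 3.03 TPM, distance 0.36). Next was Lef1, a Wnt pathway factor (8.37 and 1.30 TPM, distance 1.21). The choice used the same 2 values per gene, so the lower level of both in replicate 2 is no separate result. Likeness over 2 libraries describes level only.

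**Figure D5:**
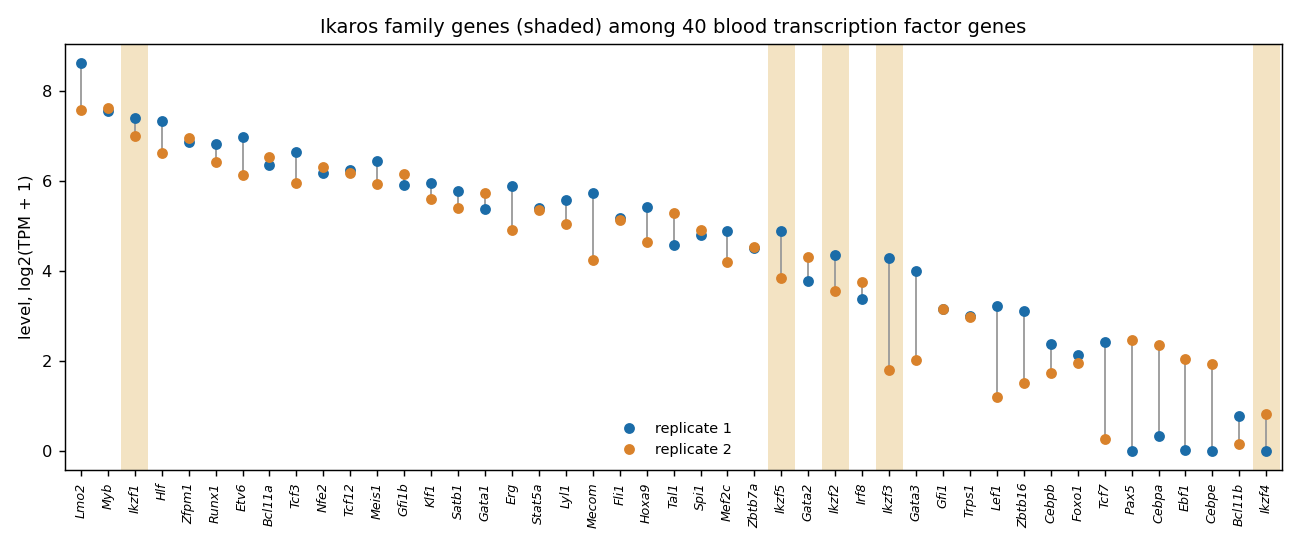
Levels on the log2(TPM + 1) scale of the Ikaros family genes (shaded) and 40 blood transcription factor genes, ordered by mean TPM, with 1 point per library (blue, replicate 1; orange, replicate 2). Ikzf1 stands behind Lmo2 and Myb, Ikzf5, Ikzf2 and Ikzf3 stand in the lower middle, and Ikzf4 is last.

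The factors of the same list that were not detected in both libraries were Tcf7, Pax5, Cebpa, Ebf1, Cebpe and Bcl11b. Of them Tcf7, a T lineage factor, was higher in replicate 1 (4.37 and 0.19 TPM), while the B lineage factors Pax5 (0 and 4.54 TPM) and Ebf1 (0.01 and 3.12 TPM) and the myeloid factors Cebpa (0.25 and 4.14 TPM) and Cebpe (0 and 2.83 TPM) were higher in replicate 2. Ikzf1 itself had 169 and 128 TPM.

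The listed partner genes of Ikaros were all detected. Each of the 13 NuRD genes passed the detection limits in replicate 1 and in replicate 2, beside 45.5% of 21461 nuclear protein coding genes. The list median was 57.8 TPM in the first replicate and 57.6 TPM in the second, against medians of 13.99 and 12.5 TPM over all coding genes detected in both. The highest were Chd4, the remodeling ATPase that Ikaros binds (107 and 110 TPM), Mbd2, a methyl-CpG binding subunit (90.4 and 86.2 TPM), and Mta2, a scaffold subunit (101 and 73.1 TPM). None of the 13 was more than 2-fold apart between the libraries, beside 23.3% of 11189 coding genes detected in either library.

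All 10 genes of the Sin3, CtBP and SWI/SNF group were detected too, beside the same 45.5%, with medians of 57.2 and 52.8 TPM. By mean over the libraries, Arid1a, a SWI/SNF subunit, was highest (127 and 111 TPM), followed by the Sin3 scaffold Sin3a (137 and 49.8 TPM) and the corepressor Ctbp1 (79.9 and 77.6 TPM). In replicate 1 Sin3a was above Arid1a. Sin3a and Ctbp2 (50.4 and 13.8 TPM) were more than 2-fold higher in replicate 1, as were 11.2% of 11189 coding genes. Of the enzymes that modify or degrade Ikaros, all 11 were detected, again beside 45.5% of coding genes. The highest were the phosphatase subunits Ppp1cc (108 and 111 TPM) and Ppp1ca (101 and 116 TPM) and the casein kinase 2 subunit Csnk2b (98.3 and 83.8 TPM). Crbn encodes cereblon, the receptor through which thalidomide analogs degrade human Ikaros and Aiolos. It had 2.89 and 7.67 TPM, the lowest mean of the list (5.28 TPM), although Rbx1 (7.55 TPM) and Csnk2a2 (6.26 TPM) were below it in replicate 2.

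Of 18 genes known to depend on Ikaros in mouse lymphoid cells, 6 were detected in both libraries, beside the 45.5% of all nuclear protein coding genes given above. Taken by itself, replicate 2 had 12 of the 18 detected and replicate 1 had 6, beside 10740 and 10218 of the 21461 coding genes. The highest of the 18 were Myc, which Ikaros represses in pre-B cells (287 and 172 TPM), Foxp1 (62.4 and 73.3 TPM) and the cytokine receptor gene Flt3 (58.6 and 42.9 TPM). The other detected members were Dntt, which encodes the terminal transferase of antigen receptor joining (39.9 and 31.6 TPM), Notch1 (17.8 and 24.2 TPM) and the interleukin 7 receptor gene Il7r (3.29 and 1.66 TPM).

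The remaining 12 were not detected in both. Igll1 and Vpreb1, the surrogate light chain genes, had 9.73 and 1.39 TPM in replicate 2 and none in replicate 1. The recombinase genes Rag1 (0 and 3.78 TPM) and Rag2 (0.02 and 2.67 TPM), with Cd79b (0 and 5.83 TPM) and Ebf1, were likewise more than 2-fold higher in replicate 2. Over 11189 coding genes detected in either library, 12.1% were. Il2ra (0.51 and 0 TPM), Hes1 (0 and 0.33 TPM) and Notch3 (0 and 0.10 TPM) were low in both, and Dtx1, Cd8a and Ptcra were at 0 in both. The 4 listed genes Igll1, Vpreb1, Cd79b and Ebf1 are also on the B cell marker list, whose sum was higher in replicate 2, and the part of that signal was not tested.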

How the data were processed

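Total RNA of 2 pools of 100 hematopoietic stem cells was measured, with 1 library each. Expected counts were deposited by the authors per gene and per transcript, as estimated reads that need not be whole. TPM, its posterior mean and FPKM were deposited in the same tables. The percent of a gene carried by each transcript (IsoPct) was deposited in the transcript tables. The bounds of the TPM intervals, held as a signal unit, and the posterior SD of counts, a score, were deposited without a stated level, per the file headers; the posterior SD was not used. Build mm10 and annotation GENCODE M4 are named in a text the authors deposited, and the columns carry the names that RSEM writes, per the file headers. The sources used here do not give the aligner, program versions, trimming or strand handling. Whether reads of a gene and an antisense partner were told apart is therefore not known.

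Symbols matched 42462 of 43346 genes (98.0%). Positions, biotypes, exons and sequences came from GENCODE M21 on GRCm38, joined on transcript identifier and equal length. Fingers were found in translated coding sequences as C, 2 residues, C, 12 residues, H, 3 to 5 residues, H or C. Ratios used a pseudocount of 0.1 TPM and differences log2(TPM + 1), which understates the change of low genes. Shares of counts carry exact 95% binomial intervals, which cover counting error only, since PCR reads without molecular identifiers are not independent molecules. Scaling alternatives used edgeR 4.0.16 (TMM) and DESeq2 1.42.0 in R 4.3.3 on expected counts rounded to whole numbers. Other steps used Python 3.11.15, pandas 2.3.3, numpy 2.4.6, scipy 1.17.1, Biopython 1.88 and matplotlib 3.10.9, and were tested on simulated data.

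The members and lists were chosen with earlier results of these data known. All members were named, with transcripts of at least 5% IsoPct in either library, the 3 highest genes of each partner list, list genes not detected in both libraries, and the 2 nearest transcription factors of each detected member. Sin3a and Ctbp2, Crbn, the remaining Ikaros-dependent genes and the T and NK cell markers were named after their values were seen. Marker lists are given by sums and counts.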

Additional observations from a re-analysis of the deposited data

How the results depend on the processing

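No paired analysis was possible because the series has a single group. The number of members detected in both libraries was 4 at the limits used, 4 at 0.5 TPM and 5 counts, 3 at 5 TPM and 50 counts (without Ikzf3), and 4 for any count. Mean levels depend on the unit. With TPM rescaled to 1000000 over nuclear protein coding genes they were 523 for Ikzf1, 52.8 for Ikzf2, 35.5 for Ikzf3, 1.43 for Ikzf4 and 72.7 for Ikzf5, in the same order. In FPKM Ikzf1 averaged 96.3, and as posterior mean TPM Ikzf4 averaged 1.25. With complete coding transcripts only, added after seeing the data, Ikzf2 averaged 8.17 TPM, the log2 ratio of Ikzf5 to Ikzf2 was 1.10, and 1 member was more than 2-fold apart between the libraries in place of 2. With rescaled TPM, TMM or DESeq2 scaling the count was again 2, but the members were Ikzf3 and Ikzf4, not Ikzf3 and Ikzf5. With a pseudocount of 0.1 TPM it was 3, with Ikzf4 added at a log2 difference of -3.10. The median log2 difference over 11189 genes was 0.086 on TPM, -0.082 on rescaled TPM, -0.046 with TMM and -0.064 with DESeq2. The share of transcripts with all N-terminal fingers averaged 51.4% of Ikzf1 by TPM, 61.2% over complete coding transcripts and 84.1% by counts, and for Ikzf2 42.6%, 75.8% and 79.3%. Posterior mean shares kept 22 of 23 transcripts within the spread between the libraries, and shares of counts 12 of 19. Leaving out either library changed no order of the 5 gene levels, but it changed which transcript leads: without replicate 2, Ikzf2-203 (45.5%) exceeded Ikzf2-201 (34.8%) and Ikzf5-203 (51.2%) exceeded Ikzf5-201 (29.1%), the opposite of the means. Without replicate 1, Ikzf3-201 (70.5%) exceeded Ikzf3-204 (10.5%), whose mean shares were 43.0% and 43.8%. Also without replicate 1, 12 of the 18 Ikaros-dependent genes were detected in place of 6, and the B cell markers detected were 8 in place of 3. For scale, 10740 of 21461 nuclear protein coding genes were detected in replicate 2, in place of 9769 in both libraries. Depth limits the minor isoforms, many of which rest on fewer than 100 counts.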

Other observations

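Several annotated genes overlap the members. On the opposite strand, Pstk overlaps Ikzf5 over 5831 bases and had 4 counts in replicate 1 and 69 in replicate 2. Gm11999 overlaps Ikzf1 over 398 bases and had 0 and 9 counts, while Gm12000 (Ikzf1), Gm29114 (Ikzf2) and Gm26876 (Ikzf4) had none. On the same strand, the sense intronic genes Gm28112 and Gm29112 lie within Ikzf2 and had 360 and 101 counts and 211 and 67 counts.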
